A study of Mus musculus with 359 samples.

Results

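Lungs of mice given 4-methylimidazole (4-MEI) by gavage at 200 mg/kg-d were compared with lungs of mice given the vehicle, both after 2 days. The libraries were chosen by their titles in the day 2 lung count table, which gave 12 libraries at 200 mg/kg-d and 12 vehicle libraries, 24 of the 359 libraries of the series. RNA sequencing of liver and lung was done in that series in male and female B6C3F1 mice, dosed by gavage for 2 days or through feed for 5 or 28 days, to follow the response of both organs over dose and time. The groups used here were B6C3F1 males at 200 mg/kg-d (n = 6), B6C3F1 females at 200 mg/kg-d (n = 6), vehicle males (n = 6) and vehicle females (n = 6). The labels name no age, hour of tissue collection or pooling of animals, and nothing says that the libraries came from separate animals, so p-values measure the spread between these libraries.

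4-MEI arises where ammonia and sugars are heated together, as in some caramel colours, and long feeding studies found lung tumours in mice given it. The mouse lung joins airways lined by club and ciliated cells to air sacs lined by alveolar type 1 and type 2 cells, with capillaries, macrophages and lymphocytes between them. Lung cells also run a circadian clock, in which the activators Arntl and Clock drive their own repressors over each day. In a whole-tissue library, fewer cells of a type and less RNA per cell cannot be told apart.

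Total counts ran from 7253910 in replicate 57, a female at 200 mg/kg-d, to 17817624, and the next lowest total was 11244543. Xist and the Y-linked genes matched the labelled sex in 24 of 24 libraries. Among the other day 2 lung libraries, used for the dose series alone, the library labelled replicate 78, female, at 300 mg/kg-d had 0.631 CPM of Xist and 0.0631 CPM of the Y-linked genes together, so its label is not borne out. Markers of the lung were present in both dose groups: the club cell secretoglobin Scgb1a1 had a median of 34330 CPM (counts scaled to a common library size, with TMM factors) at 200 mg/kg-d and 31587 CPM in vehicle, and the alveolar type 1 gene Ager had 2467 CPM at 200 mg/kg-d and 2446 CPM in vehicle. One library stood apart. Replicate 64, a female at 200 mg/kg-d, lay at 63.9 on the first principal component, which held 31.7% of the variance over 12289 genes, while the other 23 libraries lay between -9.68 and 7.64. The main counts of genes past the threshold, and those of the clock, AHR, NRF2 and lymphocyte lists, are therefore given with and without it. All 472 genes that passed with it also passed without it, in the same direction.

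At 200 mg/kg-d, 232 genes rose and 240 fell among 14931 genes tested with edgeR's quasi-likelihood test, at an adjusted p under 0.05, which is 3.16% of the genes. The changes were small: the median log2 fold change was 0.30 among the genes that rose and -0.31 among those that fell, against 0.009 over all genes tested. A log2 fold change over 1 in size was found for 9 of the genes that rose and 10 of those that fell. Over all 14931 genes, 2757 had an unadjusted p under 0.05, and DESeq2, an alternative test, called 408 as higher and 420 as lower. Without replicate 64, 452 genes rose (3.02%) and 454 fell (3.03%) among 14988, together 6.04%. All 472 genes of the full comparison were among these, and 0 changed direction. Genes past the threshold included clock genes, genes of cytotoxic lymphocytes and some targets of the transcription factors AHR and NRF2.

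The clock genes moved in opposing directions. Of 15 core clock genes tested, 2 rose (Arntl and Clock) and 6 fell (Nr1d1, Nr1d2, Ciart, Bhlhe41, Bhlhe40 and Per3), where 1.55% of all genes rose and 1.61% fell. Of 7 clock output genes, 1 rose (Nfil3) and 3 fell (Dbp, Tef and Hlf). Arntl, also called Bmal1, and Clock form the activator pair of the clock, and the genes that fell include targets of that pair. The median log2 fold change was -0.01 over the core list and -0.04 over the output list, with members moving both ways. Without replicate 64, 2 core genes rose and 7 fell with a median of -0.07, and 1 output gene rose and 3 fell with a median of -0.13. Over all genes, 3.02% rose and 3.03% fell without that library.

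The proximal promoters show which clock motifs lie near the starts of these genes. RefSeq windows on GRCm38.p6, from 250 bases before to 50 after each start, were found for 11 of the 12 clock genes past the threshold, 15 windows in all. They were searched on both strands for the E-box CACGTG, bound by the Arntl and Clock pair, the D-box TTANNTAA, bound by Dbp, Tef, Hlf and Nfil3, and AGGTCA, the core bound by Nr1d1 and Nr1d2. An E-box was found in 4 of these 15 windows and in 7.15% of all 32851 mouse windows. A D-box was found in 2 of 15 windows and in 6% of all windows, and AGGTCA in 4 of 15 windows and in 16.3% of all windows. Matches were found in 8 of the 11 genes, and none in the windows of Nr1d1, Dbp and Hlf. The share of all genes with a match to any of these motifs was not counted. Stretches of 6 of the 8 genes are shown as examples of matches upstream of the start, with the matches in capitals. None of the capital runs overlap. The match of Arntl, downstream of its start, that of Clock at -119 and an E-box at -138 in the second window of Tef are not shown. Each is written 5′ to 3′ on the strand of its gene, with positions counted back from the start site. The Per3 stretch is chr4:151044786-151044900 (minus strand) with a D-box at -205 and at -158. The Nr1d2 stretch is chr14:18239148-18239213 (minus strand), and that of Nfil3 is chr13:52981040-52981063 (minus strand, -24 to -1), where the core reads on the other strand. The Ciart sites are chr3:95882327-95882356 and chr3:95882262-95882291 (minus strand), with E-boxes at -116, -58 and -44. The Bhlhe41 site is chr6:145865556-145865585 (minus strand, E-box at -153), and the Tef sites are chr15:81802488-81802517 (D-box at -174) and chr15:81802534-81802563 (E-box at -127) on the plus strand.
Per3: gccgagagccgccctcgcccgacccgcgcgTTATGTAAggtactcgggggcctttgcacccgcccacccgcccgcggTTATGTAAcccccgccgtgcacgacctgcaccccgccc
Nr1d2: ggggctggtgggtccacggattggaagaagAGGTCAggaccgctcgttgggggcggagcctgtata
Nfil3: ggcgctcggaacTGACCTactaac
Ciart, distal: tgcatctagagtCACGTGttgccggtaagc
Ciart, proximal: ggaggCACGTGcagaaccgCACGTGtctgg
Bhlhe41: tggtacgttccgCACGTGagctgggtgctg
Tef, D-box: cctttgcaaagTTAGATAAcaggccgggtt
Tef, E-box: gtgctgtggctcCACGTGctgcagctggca
A match describes letters only, and binding was not measured.

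Nr1d1 encodes REV-ERB alpha, a nuclear receptor that represses Arntl, and lies on chromosome 11 from 98767932 to 98775333 (GRCm38). It ran from 13.5 to 139.2 CPM with a median of 75.1 in the 12 libraries at 200 mg/kg-d, against 72.4 to 391.6 CPM with a median of 194.3 in the 12 vehicle libraries. All 12 libraries at 200 mg/kg-d lay below the vehicle median and 5 lay below every vehicle library, so the groups overlapped. Its log2 fold change was -1.66 (SE 0.31, adjusted p = 0.00528). The end of Nr1d1 overlaps Thra on the other strand, and no source used here says whether the counting was strand-specific, so reads of the shared stretch cannot be told apart.

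Nr1d2, which encodes the related REV-ERB beta, ran from 60.4 to 148.4 CPM (median 121.3) at 200 mg/kg-d and from 156.1 to 219.4 CPM (median 193.0) in vehicle. Its groups did not overlap in either sex, and it fell by 0.69 on the log2 scale (SE 0.10, adjusted p = 0.000619). Ciart, a repressor of the Arntl and Clock pair, had 3.91 to 8.01 CPM (median 5.91) at 200 mg/kg-d and 5.99 to 14.8 CPM (median 9.22) in vehicle. It fell by 0.81 (SE 0.12, adjusted p = 0.000619), with some overlap. Bhlhe41, which encodes the repressor DEC2, had 16.6 to 29.8 CPM (median 27.4) at 200 mg/kg-d and 28.8 to 55.9 CPM (median 41.0) in vehicle. All 12 of its values at 200 mg/kg-d were below the vehicle median and 9 were below every vehicle library, with a log2 fold change of -0.68 (SE 0.09, adjusted p = 0.000462). Smaller falls were measured for Per3 (log2 fold change -0.39, SE 0.10, adjusted p = 0.0266) and for Bhlhe40, which encodes DEC1 (-0.27, SE 0.07, adjusted p = 0.0209).

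Among output genes, Dbp, Tef and Hlf encode activators of one family that bind D-boxes. Dbp had 13.2 to 108.7 CPM (median 67.4) at 200 mg/kg-d and 56.3 to 246.3 CPM (median 165.0) in vehicle. It fell by 1.29 on the log2 scale (SE 0.28, adjusted p = 0.0133), and all 12 libraries at 200 mg/kg-d were below the vehicle median. Tef had 323.3 to 555.8 CPM (median 381.7) at 200 mg/kg-d and 424.9 to 590.1 CPM (median 473.8) in vehicle, with a log2 fold change of -0.38 (SE 0.07, adjusted p = 0.00448). Hlf had 46.4 to 85 CPM (median 61.5) at 200 mg/kg-d and 72.6 to 91.5 CPM (median 80.4) in vehicle, with a log2 fold change of -0.39 (SE 0.07, adjusted p = 0.00528).

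Arntl, on chromosome 7 from 113207465 to 113314126, moved the other way. It ran from 5.99 to 36.9 CPM (median 9.35) at 200 mg/kg-d, against 2.43 to 6.54 CPM (median 4.60) in vehicle. Of the 12 libraries at 200 mg/kg-d, 11 were above every vehicle library, and the highest value was that of replicate 64. Its log2 fold change was 1.43 (SE 0.28, adjusted p = 0.00732), and 1.09 without replicate 64 (SE 0.15, adjusted p = 0.000335). Nfil3 encodes E4BP4, a repressor that binds the same D-boxes as Dbp. It ran from 5.02 to 35.9 CPM (median 8.12) at 200 mg/kg-d and from 3.22 to 6.92 CPM (median 4.35) in vehicle, again with replicate 64 highest. Its log2 fold change was 1.15 (SE 0.27, adjusted p = 0.0222), and 0.81 without that library (SE 0.16, adjusted p = 0.00318). Clock rose by 0.27 (SE 0.06, adjusted p = 0.0150), with medians of 106.1 CPM at 200 mg/kg-d and 91.9 CPM in vehicle.

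**Figure D1:**
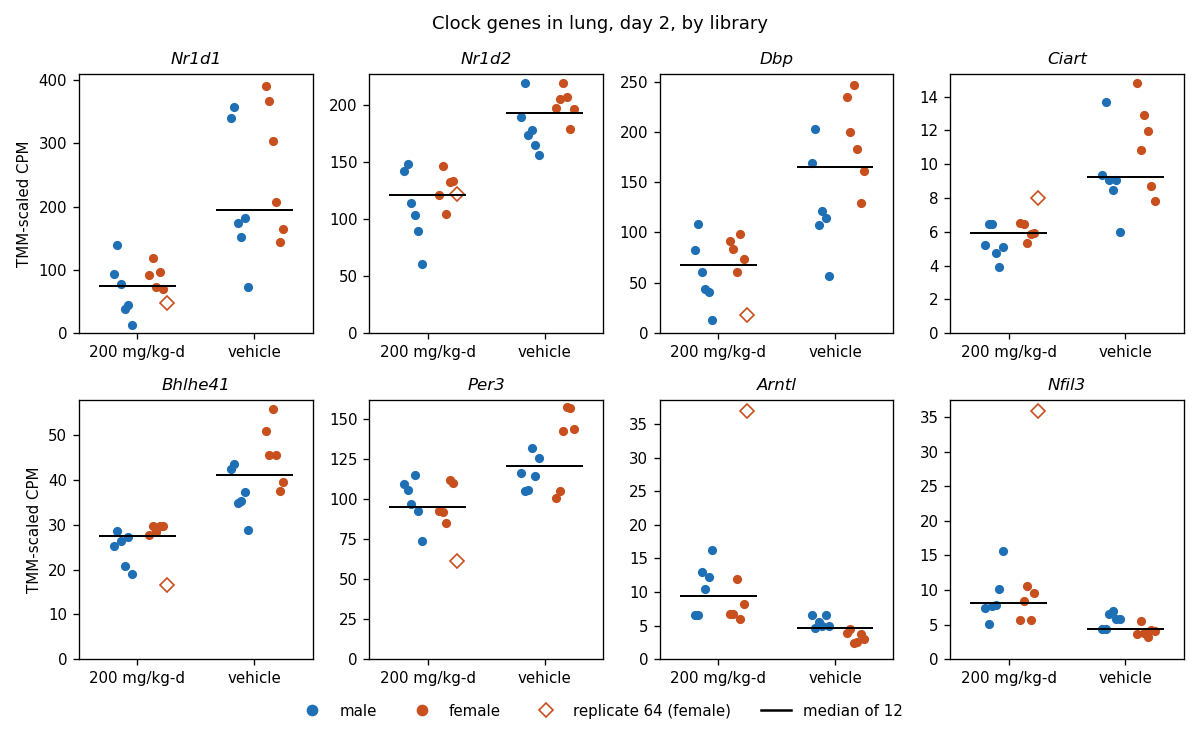
TMM-scaled CPM (vertical axes, from 0) of 8 clock genes in each lung library at 200 mg/kg-d and in vehicle, with males in blue, females in orange, replicate 64 as an open diamond and the median of 12 as a bar. The first 6 panels, Nr1d1 to Per3, are genes that fell and the last 2, Arntl and Nfil3, are genes that rose. In both of these replicate 64 is the highest library, at 36.9 and 35.9 CPM.

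Without replicate 64 the log2 fold changes were -1.60 for Nr1d1 (adjusted p = 0.00513), -0.69 for Nr1d2, -0.85 for Ciart, -0.62 for Bhlhe41 and -1.19 for Dbp (adjusted p at most 0.00734).

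The other 7 core clock genes did not pass in edgeR, while DESeq2 called 3 of the 15 core genes as higher and 6 as lower. Per1 had a log2 fold change of -0.18 (adjusted p = 0.658) with replicate 64 at 422.8 CPM, the highest of its group, and without that library it fell by 0.41 (adjusted p = 0.0470). Per2 was at -0.01 (adjusted p = 0.971), Cry1 at 0.38 (adjusted p = 0.240), Cry2 at 0.07 (adjusted p = 0.809), Npas2 at 0.90 (adjusted p = 0.0920) and Rora at 0.09 (adjusted p = 0.638). Among output genes, Tsc22d3, Usp2 and Wee1 did not pass, at 0.13, -0.04 and -0.03. Libraries at 200 mg/kg-d carry the title numbers 49 to 64 and vehicle libraries 1 to 16, so anything that followed the numbers from block to block cannot be told apart from the dose. What the numbers stand for is not stated in the labels. Clock genes also varied with the number inside a block. Nr1d1 had 93.2 CPM in number 49 and 13.5 CPM in number 56 among males at 200 mg/kg-d, and 340.3 CPM in number 1 and 72.4 CPM in number 8 among vehicle males. It had 91.3 CPM in number 57 and 48.1 CPM in number 64 among females at 200 mg/kg-d, and 391.6 CPM in number 9 and 165.3 CPM in number 16 among vehicle females. If the numbers followed the hour of collection, clock genes and dose could not be told apart. With the place of a library within its block of 8 numbers as a further term, Nr1d1 had a log2 fold change of -1.74 (adjusted p = 1.32e-05) and Arntl of 1.35 (adjusted p = 0.00325).

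The same clock genes were read in the liver libraries of the same groups, as values only. Median Nr1d1 was 19.0 CPM at 200 mg/kg-d and 35.1 CPM in vehicle livers, with ranges of 4.54 to 36.6 CPM at 200 mg/kg-d and 8.62 to 117.8 CPM in vehicle. Median Dbp was 43.1 CPM at 200 mg/kg-d and 68.7 CPM in vehicle livers, and median Arntl was 7.64 CPM at 200 mg/kg-d and 5.07 CPM in vehicle livers. The liver groups overlapped for these 3 genes. In contrast, liver Nr1d2 had medians of 81.2 CPM at 200 mg/kg-d and 78.8 CPM in vehicle. The difference between the organs was not tested.

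The lists of AHR and NRF2 targets gave 2 calls of 5 genes and 3 of 17, where 1.55% of all genes rose, and no gene of either list fell. Aldh3a1, on chromosome 11 from 61207537 to 61218421, encodes an aldehyde dehydrogenase and is a target of the aryl hydrocarbon receptor (AHR), which senses planar aromatic chemicals. It ran from 37.1 to 79.3 CPM (median 45.4) at 200 mg/kg-d and from 13.3 to 34.6 CPM (median 24.2) in vehicle. The groups did not overlap, and the log2 fold change was 1.02 (SE 0.14, adjusted p = 0.000557), or 0.93 without replicate 64 (adjusted p = 0.000209). Of 5 AHR targets tested, 2 rose and 0 fell, with a median log2 fold change of 0.21. Without replicate 64, 2 rose and 0 fell with a median of 0.06. Cyp1b1, a cytochrome P450 and the other AHR target that rose, had 15.6 to 26.7 CPM (median 19.3) at 200 mg/kg-d and 12.7 to 19.1 CPM (median 14.3) in vehicle, with a log2 fold change of 0.43 (SE 0.08, adjusted p = 0.00432). Cyp1a1, the classic reporter of AHR, was spread widely, at 43.3 to 242.7 CPM (median 80.4) at 200 mg/kg-d and 53.3 to 241.4 CPM (median 109.1) in vehicle. Its log2 fold change was -0.07 (adjusted p = 0.937), and those of Nqo1 and Tiparp were 0.21 (adjusted p = 0.406) and 0.17 (adjusted p = 0.520).

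NRF2 is the transcription factor that turns on antioxidant enzymes. Of 17 NRF2 targets tested, 3 rose and 0 fell, with a median of 0.21. Without replicate 64, 5 rose and 0 fell with a median of 0.09, where 3.02% of all genes rose. Gpx2, a glutathione peroxidase of epithelia, had 23.7 to 42.8 CPM (median 27.5) at 200 mg/kg-d and 17.8 to 27 CPM (median 21.3) in vehicle. Its log2 fold change was 0.43 (SE 0.09, adjusted p = 0.00750). Cbr3, a carbonyl reductase, rose by 0.36 (SE 0.08, adjusted p = 0.0110), with medians of 18.3 CPM at 200 mg/kg-d and 14.6 CPM in vehicle. Gclc, the catalytic subunit of the enzyme that starts glutathione synthesis, had 159.7 to 467.8 CPM (median 191.2) at 200 mg/kg-d and 138.5 to 175.0 CPM (median 152.7) in vehicle. Replicate 64 held its top value, and the log2 fold change was 0.46 with it (SE 0.13, adjusted p = 0.0485) and 0.29 without it (adjusted p = 0.000585). With all libraries it sat near the threshold, and the call held in 9 of 29 alternatives. Replicate 64 was above all other 23 libraries in 11 of the 17 NRF2 targets, and Slc7a11, the cystine transporter gene, had 23.2 CPM there and at most 3.73 CPM in the others. That library was also above all others in 11 of 16 integrated stress response genes and below all others in 2. Among 9 general capillary markers it was above all others in 6 and below all others in 2. The share of all genes in which it was simply the highest was not counted, so these counts describe that library only. Aldh1a1, an aldehyde dehydrogenase counted among the CAR and PXR targets and among the club cell markers, rose by 0.30 (SE 0.06, adjusted p = 0.00948), with 1867 to 2428 CPM (median 2168) at 200 mg/kg-d and 1230 to 2373 CPM (median 1720) in vehicle. Acaa1b, a peroxisomal thiolase gene with a near-identical copy that could share its reads, rose by 0.58 (SE 0.09, adjusted p = 0.00152) and was 1 of 25 PPAR-alpha and fatty acid genes to pass.

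Some genes of cytotoxic lymphocytes fell. Natural killer cells and cytotoxic T cells kill through perforin and granzymes, and natural killer cells are known by receptors of the Klr and Ncr families. Of 16 such genes tested, 0 rose and 6 fell, where 1.61% of all genes fell. All 16 had a negative fold change and the median was -0.52, against 0.009 over all genes tested. Without replicate 64, 7 fell, where 3.03% of all genes fell, and the median was -0.48. The summed level of the full list ran from 22.5 to 80.8 CPM (median 56.2) at 200 mg/kg-d and from 49.1 to 143.1 CPM (median 71.4) in vehicle.

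Prf1, on chromosome 10 from 61297833 to 61304680, encodes perforin. It ran from 0.929 to 4.12 CPM (median 2.95) at 200 mg/kg-d and from 3.16 to 8.83 CPM (median 4.95) in vehicle. All 12 values at 200 mg/kg-d were below the vehicle median, and in females the groups did not overlap, with at most 3.42 CPM at 200 mg/kg-d and at least 5.17 CPM in vehicle. It fell by 0.99 on the log2 scale (SE 0.17, adjusted p = 0.00183). Ncr1, which encodes the natural killer receptor NKp46, ran from 0.542 to 3.22 CPM (median 2.13) at 200 mg/kg-d and from 2.98 to 7.13 CPM (median 3.69) in vehicle. Of its 12 values at 200 mg/kg-d, 11 were below every vehicle library, and it fell by 1.04 (SE 0.22, adjusted p = 0.00890). Eomes, a transcription factor of natural killer and memory T cells, was low, with a median of 0.709 CPM at 200 mg/kg-d and 1.75 CPM in vehicle, and fell by 0.99 (SE 0.21, adjusted p = 0.00948). The receptor genes Klrb1c (NK1.1; log2 fold change -0.80, SE 0.14, adjusted p = 0.00249), Klrk1 (NKG2D; -0.81, SE 0.15, adjusted p = 0.00488) and Klre1 (-0.84, SE 0.24, adjusted p = 0.0489) also fell, as did the receptor gene Klri2, outside the list, by 1.05 (SE 0.22, adjusted p = 0.00814). Without replicate 64, Prf1 and Ncr1 both had a log2 fold change of -0.93 (adjusted p = 0.00142 for Prf1 and 0.00419 for Ncr1). Gzma, a granzyme gene, had a median of 9.09 CPM at 200 mg/kg-d and 13.6 CPM in vehicle and did not pass, at -0.64 (adjusted p = 0.0568).

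**Figure D2:**
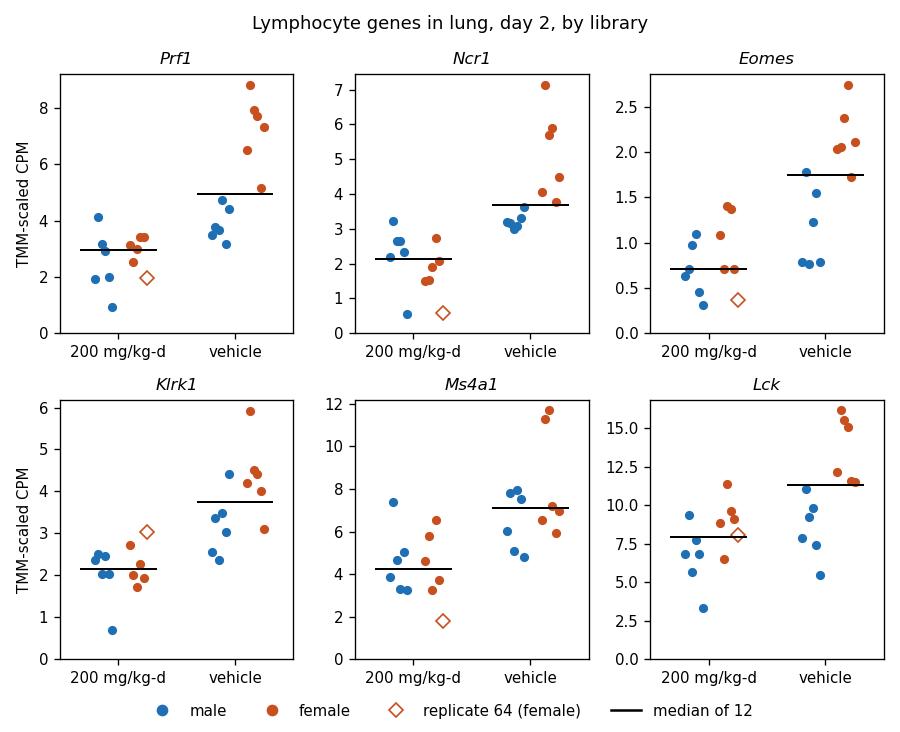
TMM-scaled CPM (vertical axes, from 0) of 4 cytotoxic lymphocyte genes, the B cell gene Ms4a1 and the T cell gene Lck in each lung library at 200 mg/kg-d and in vehicle, with males in blue, females in orange, replicate 64 as an open diamond and the median of 12 as a bar. Medians at 200 mg/kg-d lie below those of vehicle in all 6 panels, and the highest value of each panel is that of a vehicle female, 8.83 CPM for Prf1.

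Markers of other lymphocytes gave 3 calls in edgeR, where 1.61% of all genes fell and the median over all genes was 0.009. Of 16 T cell markers, 0 rose and 2 fell, with a median of -0.21, or -0.26 without replicate 64 with the same counts. Lck, a kinase of the T cell receptor, had a median of 7.91 CPM at 200 mg/kg-d and 11.3 CPM in vehicle (log2 fold change -0.49, adjusted p = 0.0376), and Cd3g, a subunit of that receptor, had 4.22 CPM at 200 mg/kg-d and 5.35 CPM in vehicle (-0.37, adjusted p = 0.0331). Cd3e was at -0.06 (adjusted p = 0.872). Of 12 B cell markers, 0 rose and 1 fell, all 12 had a negative fold change and the median was -0.62. Of these B cell markers, 11 had an unadjusted p under 0.05, DESeq2 called 5 as lower, and 5 fell in females in edgeR. Over all 14931 genes tested, the same counts were 2757, 420 and 268. Without replicate 64, 2 fell and the median was -0.54. Ms4a1, which encodes CD20, had 1.80 to 7.41 CPM (median 4.24) at 200 mg/kg-d and 4.80 to 11.7 CPM (median 7.10) in vehicle (log2 fold change -0.73, SE 0.18, adjusted p = 0.0257). Replicate 64 was below all other 23 libraries in 10 of the 11 B cell markers that averaged at least 1 CPM. It was also below all others in 15 of 24 interferon-stimulated genes and above all others in 0. Among 25 matrix and cross-linking genes it was below all others in 13 and above all others in 5. The share of all genes in which it was simply the lowest was not counted, so these counts describe that library only. Cytotoxic, T and B cell genes were at low levels, and their part in any other result was not tested.

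Over all 14931 genes tested, 1.55% rose and 1.61% fell in edgeR, 2757 had an unadjusted p under 0.05 and DESeq2 called 828. Of 14 alveolar type 1 markers, 0 rose and 2 fell, with a median of -0.11, while 5 had an unadjusted p under 0.05 and DESeq2 called 3 as lower. Pdpn, which encodes podoplanin and is shared with lymphatic endothelium, ran from 102.5 to 167.6 CPM (median 137.4) at 200 mg/kg-d and from 151.9 to 218.1 CPM (median 188.0) in vehicle, with a log2 fold change of -0.45 (SE 0.07, adjusted p = 0.00108). All 12 values at 200 mg/kg-d were below the vehicle median and 9 were below every vehicle library. Emp2, a membrane protein of these cells, fell by 0.19 (SE 0.04, adjusted p = 0.0131), while Ager was at -0.07 (adjusted p = 0.539) and Aqp5, the water channel, at -0.09 (adjusted p = 0.519). Of 13 alveolar type 2 markers, 0 passed in edgeR (3 had an unadjusted p under 0.05 and DESeq2 called 2), and their summed level had a median of 39284 CPM at 200 mg/kg-d and 38679 CPM in vehicle. Of 10 club cell markers, 2 rose (Aldh1a1 and Hp) and 0 fell, with a median of 0.20; 9 of the 10 had a positive fold change, 6 had an unadjusted p under 0.05 and DESeq2 called 3 as higher. Hp, which encodes the haemoglobin-binding protein haptoglobin, had medians of 1140 CPM at 200 mg/kg-d and 927.3 CPM in vehicle and a log2 fold change of 0.25 (SE 0.07, adjusted p = 0.0466), a call that held in 10 of 29 alternatives. Scgb1a1 was at 0.16 (adjusted p = 0.166) and Cyp2f2, the cytochrome P450 typical of club cells, at 0.13 (adjusted p = 0.221). Of 14 ciliated cell markers, 1 rose, Foxj1, the master regulator of motile cilia (0.29, adjusted p = 0.0477), which also held in 10 of 29 alternatives. Of 14 fibroblast markers, 0 rose and 2 fell: Npnt, which encodes nephronectin (-0.31, adjusted p = 0.00676), and Inmt, a methyltransferase (-0.29, adjusted p = 0.0133). Each of 5 endothelial lists gave 1 call, among 13 general, 9 general capillary, 13 arterial and venous, 8 aerocyte and 7 lymphatic genes tested. Negative fold changes were found for 10, 3, 8, 6 and 4 genes in that order. The calls included Eng, the TGF-beta co-receptor endoglin (-0.28, adjusted p = 0.0131), and the capillary surface gene Ly6c1 (0.45, adjusted p = 0.0474). The others were the Notch ligand gene Dll4 (-0.34, adjusted p = 0.0289), Emp2 on the aerocyte list and Pdpn on the lymphatic list. Among 14 monocyte and macrophage markers, 1 rose and 1 fell, with a median of -0.03. Cd14, a receptor for bacterial lipopolysaccharide, rose (0.57, adjusted p = 0.0173) and Treml4 fell (-0.63, adjusted p = 0.00752). Skeletal muscle, heart muscle, adipocyte and hepatocyte lists, which mark tissue that may be taken along with the lung, gave 0 calls in both edgeR and DESeq2, and 0, 0, 1 and 1 of their genes had an unadjusted p under 0.05. Their summed medians at 200 mg/kg-d were 49.8, 626.8, 134.3 and 36.1 CPM, against 58.6, 783.5, 110 and 23.1 CPM in vehicle. Only 3 of the 10 hepatocyte genes were tested, and their median log2 fold change was -1.34, the other direction. Replicate 12, a vehicle female, had 257.3 CPM of the hepatocyte gene Alb, where the vehicle median was 1.35 CPM.

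Several of the strongest single changes lay outside the lists. Fggy, a carbohydrate kinase gene, had 6.57 to 9.64 CPM (median 8.31) at 200 mg/kg-d and 10.5 to 14.3 CPM (median 11.7) in vehicle, without overlap (log2 fold change -0.50, SE 0.06, adjusted p = 0.000114). Sdc3, which encodes the heparan sulfate proteoglycan syndecan 3, had 174.2 to 236.5 CPM (median 216.6) at 200 mg/kg-d and 242.3 to 296.4 CPM (median 274.9) in vehicle, also without overlap (-0.35, SE 0.04, adjusted p = 0.000114). Olfml3, a secreted olfactomedin-like protein, had 68.9 to 109.5 CPM (median 89.3) at 200 mg/kg-d, against up to 177.4 CPM (median 132.3) in vehicle. It fell by 0.64 (SE 0.08, adjusted p = 0.000114), and 11 of its 12 values at 200 mg/kg-d were below every vehicle library. Fam189a2 rose without overlap, with 185.7 to 278.5 CPM (median 217.4) at 200 mg/kg-d and 137.9 to 182.2 CPM (median 169.8) in vehicle (0.40, SE 0.06, adjusted p = 0.000824). Smaller p-values among the genes that rose were also those of Ehf, an epithelial ETS factor (0.28, adjusted p = 0.000731), Ikzf4, a zinc finger factor (0.74, adjusted p = 0.00146), and Rasl11a, a small GTPase gene (0.71, adjusted p = 0.00152).

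The genes with the largest rises encode proteins of several kinds. Angptl7, a secreted angiopoietin-like protein, had 11.7 to 144.5 CPM (median 23) at 200 mg/kg-d and 7.21 to 17 CPM (median 8.18) in vehicle. Replicate 64 held the 144.5 CPM and the next highest was 44.3 CPM; the log2 fold change was 1.63 with it (SE 0.35, adjusted p = 0.0124) and 1.19 without it (adjusted p = 0.00201). Ttyh1, a membrane protein gene, was low, with a median of 1.18 CPM at 200 mg/kg-d and 0.548 CPM in vehicle, and its log2 fold change of 1.87 (SE 0.43, adjusted p = 0.0178) became 1.40 without replicate 64 (adjusted p = 0.00641). Cyp26b1, which breaks down retinoic acid, had 59.3 to 273.0 CPM (median 93.6) at 200 mg/kg-d and 14 to 115.4 CPM (median 36.5) in vehicle (1.32, SE 0.30, adjusted p = 0.0178). Calca, which encodes calcitonin and the neuropeptide CGRP of pulmonary neuroendocrine cells, had 1.65 to 9.74 CPM (median 2.53) at 200 mg/kg-d and 0.609 to 2.42 CPM (median 1.45) in vehicle (1.09, SE 0.27, adjusted p = 0.0223; 0.80 without replicate 64). Adm, the vasodilator adrenomedullin, rose by 0.75 (SE 0.18, adjusted p = 0.0223), as did the lipid transporter gene Mfsd2a, by 0.74 (SE 0.19, adjusted p = 0.0312). Gdpd2, Wdr72 and Ppp1r14d rose by 0.88, 0.85 and 0.79.

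Among the largest falls, Gsg1l, a partner of glutamate receptors in brain, had 0.361 to 3.44 CPM (median 1.93) at 200 mg/kg-d and 2.88 to 7.58 CPM (median 4.60) in vehicle (-1.29, SE 0.24, adjusted p = 0.00418). Serpinb10, annotated as a polymorphic pseudogene, fell by 1.21 (SE 0.24, adjusted p = 0.00588) at a median of 0.863 CPM at 200 mg/kg-d and 2.08 CPM in vehicle. Tlr12, a Toll-like receptor of mice, had 0.794 to 4.73 CPM (median 3.21) at 200 mg/kg-d and 3.08 to 9.61 CPM (median 5.61) in vehicle (-1.01, SE 0.20, adjusted p = 0.00752). The atypical cadherin gene Fat3, the myosin gene Myo16 and Ccdc42 fell by 0.93, 0.91 and 0.90. Replicate 64 held the lowest value of its group in Gsg1l, Serpinb10, Tlr12, Fat3 and Ccdc42, and all 5 passed without it, at -1.17, -1.09, -0.90, -0.82 and -0.78.

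The dose effect was also tested within each sex, in 1 fit of the 4 groups. In females 261 genes rose (1.75%) and 268 fell (1.79%), together 3.54% of 14931, and in males 0 passed (0%). In males 1509 genes had an unadjusted p under 0.05, and DESeq2 called 64 that rose and 45 that fell. Of the 472 genes of the joint comparison, 242 passed in females and 0 in males. The 4 groups share 1 estimate of the spread, and without the female replicate 64 in the fit 170 genes passed in males. In females 232 rose and 267 fell among 14988 genes without that library. The difference between the sexes was tested itself, as female minus male. It passed for 0 of 14931 genes (0%) in edgeR, where 1758 had an unadjusted p under 0.05, and DESeq2 called 6. Without replicate 64 it also passed for 0 genes in edgeR.

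Nr1d1 had a log2 fold change of -1.65 (SE 0.44) in males and -1.67 (SE 0.44) in females, and Ciart of -0.81 in males and -0.82 in females. For Prf1 the values were -0.62 (SE 0.22) in males and -1.32 (SE 0.21) in females, a difference of -0.69 (adjusted p = 0.398), and for Ncr1 they were -0.50 in males and -1.56 in females, a difference of -1.06 (adjusted p = 0.336). The female values include replicate 64, the lowest female at 200 mg/kg-d for Prf1 (1.95 CPM) and for Ncr1 (0.577 CPM). Median Prf1 was 3.06 CPM in females at 200 mg/kg-d, against 7.51 CPM in vehicle females, and 2.44 CPM in males at 200 mg/kg-d, against 3.72 CPM in vehicle males. The smallest p-values of the difference belonged to Ism1, C1rb, Adgrd1 and Zfp873, none of which passed. Ism1, the secreted protein isthmin, had 105.5 to 129.6 CPM at 200 mg/kg-d and 142.6 to 170.9 CPM in vehicle males, and 129.2 to 183.9 CPM at 200 mg/kg-d and 114.1 to 147.1 CPM in vehicle females. Its difference was 0.63 (SE 0.12, adjusted p = 0.206). C1rb, a complement protease gene, had a difference of 0.94 (SE 0.19, adjusted p = 0.206), and Adgrd1, an adhesion receptor, of 0.69 (SE 0.14, adjusted p = 0.206). The zinc finger gene Zfp873 had a difference of -0.86 (SE 0.18, adjusted p = 0.248).

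**Figure D3:**
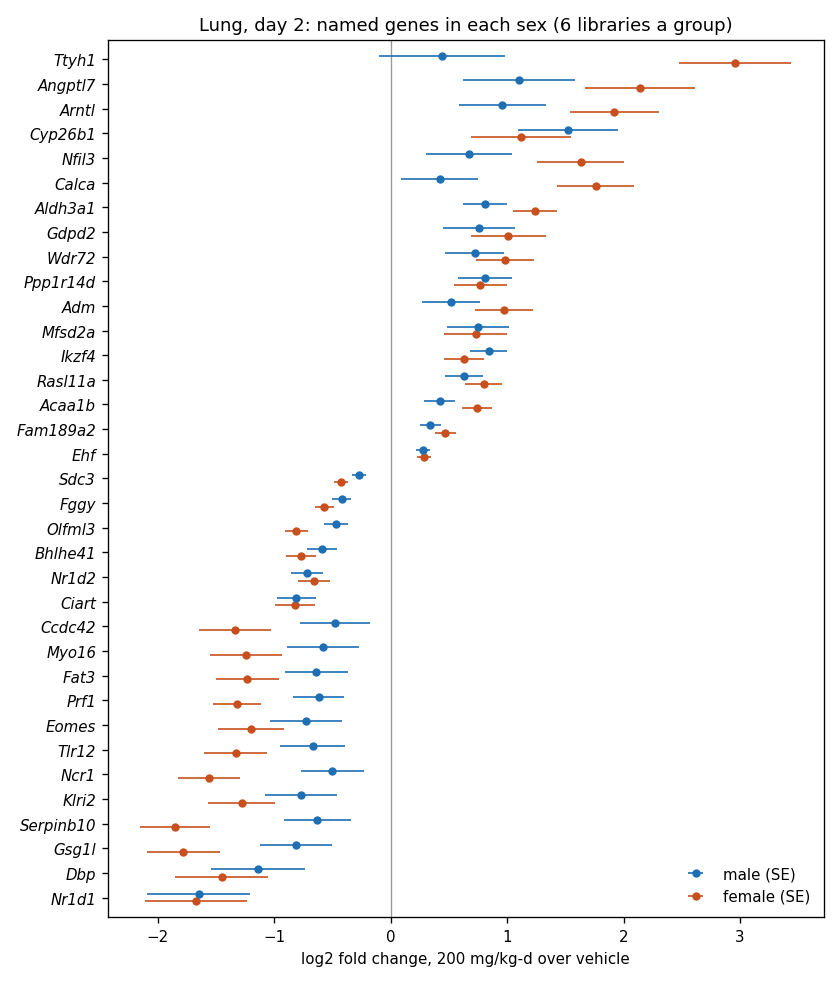
Log2 fold change of 200 mg/kg-d over vehicle (horizontal axis) for the genes with the largest changes or smallest p-values, males in blue and females in orange, with bars of 1 SE and 6 libraries per group. The genes were chosen on the joint comparison of both sexes. Nr1d1 lies at -1.65 in males and -1.67 in females, while Ttyh1 lies at 0.44 in males and 2.96 in females. Female values include replicate 64, which had 11.3 CPM of Ttyh1, with 3.93 CPM in the next female at 200 mg/kg-d. No gene passed the test of the difference between the sexes in edgeR.

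The 60 day 2 lung libraries, with 12 at each of 5 doses, place 200 mg/kg-d beside its neighbours. Against 100 mg/kg-d, 3 genes rose (0.0197%) and 2 fell (0.0131%), together 0.0328% of 15240. Angptl7 was higher by 1.38 (SE 0.25, adjusted p = 0.0145), Gabbr1, a subunit of the GABA B receptor, by 0.41 (SE 0.08, adjusted p = 0.0146), and Mxi1, an antagonist of Myc, by 0.27 (SE 0.05, adjusted p = 0.0146). Olfml3 was lower by 0.40 (log2 -0.40, SE 0.08, adjusted p = 0.0146), and Col17a1, a collagen of epithelial anchoring junctions, had a log2 difference of -0.64 (SE 0.13, adjusted p = 0.0296). Without replicate 64, the highest female at 200 mg/kg-d for Angptl7 and Gabbr1, 1 gene rose and 0 fell. Both this comparison and that with vehicle use the libraries at 200 mg/kg-d. Against vehicle, the log2 fold changes of these 5 genes were 1.63 for Angptl7, 0.41 for Gabbr1, 0.25 for Mxi1, -0.64 for Olfml3 and -0.89 for Col17a1 (adjusted p at most 0.0124).

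At 300 mg/kg-d against 200 mg/kg-d, 2 genes rose (0.0131%) and 1 fell (0.00656%), together 0.0197% of 15240. Hhex, a homeobox gene, was higher by 0.42 (SE 0.08, adjusted p = 0.0323) and Hs3st1, a heparan sulfate sulfotransferase, by 0.34 (SE 0.07, adjusted p = 0.0323), and Gprc5a, a receptor of alveolar epithelium, had a log2 difference of -0.27 (SE 0.06, adjusted p = 0.0454). At 200 mg/kg-d against vehicle, which shares libraries with this comparison, the values were -0.12 for Hhex, 0.09 for Hs3st1 and -0.08 for Gprc5a, and none passed. The count of genes was 59 without replicate 64 and 477 without replicate 66, a male at 300 mg/kg-d. Replicate 66 had 3.33% of its counts in the ribosomal RNA gene Rn45s and the lowest Y-linked level of the labelled males. The count was 0 without replicate 78, whose sex label is not borne out. It was also 0 without replicate 49, 53, 54, 56, 58, 73, 74 or 76, so that result was not particular to replicate 78. Without any other library at these doses it ran from 1 to 5. A fit of only these 24 libraries gave 0. The count against 100 mg/kg-d was 30 without replicate 60, 1 without replicate 64 and 0 without replicate 43.

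Levels over the 5 doses are given as medians of 12 libraries. Aldh3a1 had medians of 24.2, 29.2, 39.8, 45.4 and 54 CPM at 0, 50, 100, 200 and 300 mg/kg-d, and Arntl of 4.60, 7.29, 8.75, 9.35 and 10.8 CPM. Nr1d1 had 194.3, 117.3, 70.8, 75.1 and 50.4 CPM in the same order. Prf1 had 4.95, 6.44, 4.40, 2.95 and 1.89 CPM, so that 50 mg/kg-d lay above vehicle. Olfml3 had medians of 132.3, 133.9, 113.4, 89.3 and 87.7 CPM, and Angptl7 of 8.18, 10.4, 12.6, 23 and 32.1 CPM. Every dose is set beside the same vehicle libraries, and the medians are given as a description. Title numbers rose with dose from block to block, so anything that followed the numbers cannot be told apart from the dose.

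**Figure D4:**
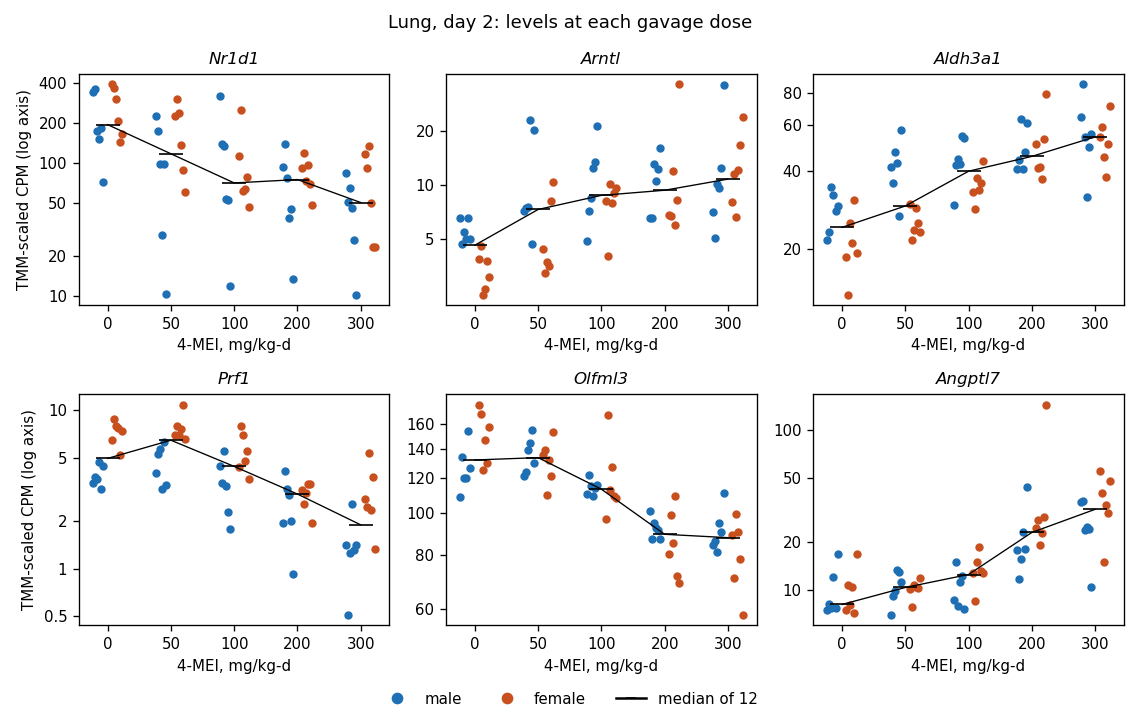
TMM-scaled CPM (vertical log axes) of 6 genes in the 60 day 2 lung libraries at 0, 50, 100, 200 and 300 mg/kg-d, with labelled males in blue, labelled females in orange and the median of 12 joined by lines. The medians of Aldh3a1 are 24.2, 29.2, 39.8, 45.4 and 54 CPM, higher at each dose than at the one before, while those of Olfml3 are 132.3, 133.9, 113.4, 89.3 and 87.7 CPM.

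Replicate 64 held a pattern of its own. In 247 of 13527 genes it was over 2 times the highest of the other 23 libraries and in 334 genes under 0.5 times the lowest, while the next library, replicate 10, had 55 such low genes. The share of all genes in which replicate 64 was simply the highest or the lowest library was not counted. All 22 glucocorticoid-responsive genes, which are switched on by the stress hormone corticosterone, were higher in it than in every other library, with a median log2 difference of 2.36 from the median of the other 5 females at 200 mg/kg-d. Fkbp5, a chaperone of the glucocorticoid receptor, had 742.7 CPM in replicate 64 and 26.2 to 98.9 CPM in those 5 females. Cdkn1a, an inhibitor of the cell cycle, had 834.6 CPM in replicate 64 and 51 to 90.6 CPM in those 5. Of 10 neutrophil markers, 9 were higher in it than in every other library, with a median difference of 3.62: Mmp8, a neutrophil collagenase, had 186.8 CPM there and 2.69 to 3.88 CPM in the other 5 females. The liver library with the same title number had 5584 CPM of Igfbp1, a gene of fasting and stress, where the next highest at 200 mg/kg-d had 100.4 CPM.

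**Figure D5:**
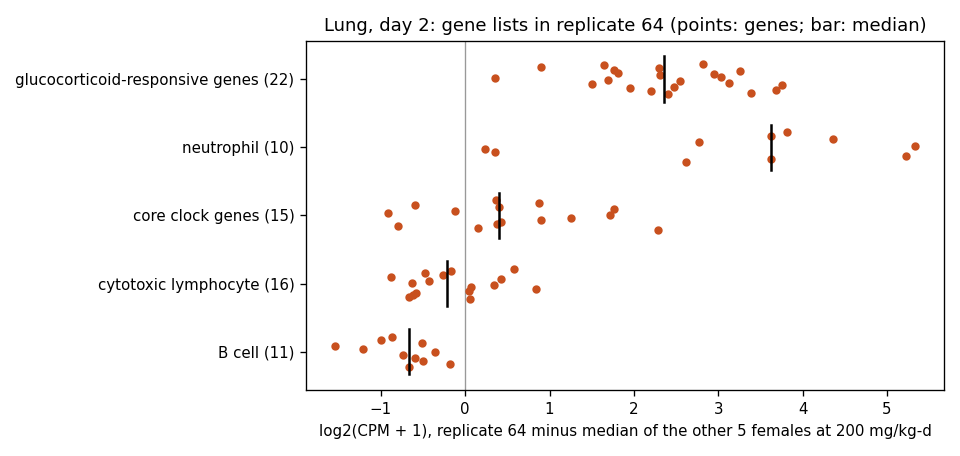
Difference in log2(CPM + 1) between replicate 64 and the median of the other 5 females at 200 mg/kg-d (horizontal axis) for the members of 5 gene lists; points are genes and bars are medians. The glucocorticoid-responsive genes (median 2.36) and the neutrophil markers (median 3.62) lie above 0, and the B cell markers lie below 0.

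List medians moved with this library. The glucocorticoid-responsive list had 0 of 22 genes past the threshold in edgeR (6 had an unadjusted p under 0.05 and DESeq2 called 2). Its median log2 fold change was 0.38, and 0.04 without replicate 64, when 2 rose and 1 fell. The neutrophil list had 0 of 10 past the threshold in edgeR (6 had an unadjusted p under 0.05 and DESeq2 called 2), and a median of 0.95, or 0.14 without replicate 64. Summed neutrophil markers ran from 174.5 to 1335 CPM (median 254.2) at 200 mg/kg-d and from 136.3 to 281.6 CPM (median 208.4) in vehicle, and the highest value at 200 mg/kg-d without replicate 64 was 361.4 CPM. In the 4-group fit the glucocorticoid-responsive median was 0.78 in females and -0.20 in males.

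Other lists gave few or no calls at 200 mg/kg-d. Of 21 pathway lists, 12 had no gene past the threshold in edgeR, and of 29 cell type lists, 12 had none. Cell cycle genes (0 of 29, median -0.03), p53 targets (0 of 15, median 0.02), inflammatory cytokines and chemokines (0 of 21, median 0.03), integrated stress response genes (0 of 16, median 0.10), chaperones (0 of 22, median -0.02) and sterol synthesis genes (0 of 21, median -0.01) were among them. DESeq2 made 3 rising calls and 1 falling call among the cytokines and chemokines and 0 in the other 5 of these lists, and the numbers at an unadjusted p under 0.05 were 1, 2, 6, 2, 4 and 5 in the order given. Over all 14931 genes tested, DESeq2 called 828 and 2757 had an unadjusted p under 0.05. Of 24 interferon-stimulated genes, 1 fell, Bst2, which encodes the virus tether tetherin (-0.25, adjusted p = 0.00752), while 23 of 24 had a negative fold change with a median of -0.12, or -0.08 without replicate 64. Over all genes tested 1.61% fell and the median was 0.009.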

How the data were processed

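Libraries were made with a TruSeq Stranded mRNA kit, per the labels' protocols. The deposited values are raw counts of reads per gene, and per the submitters' processing notes Trimmomatic, Bowtie2, SAMtools, HTSeq and the mm10 build were used. No source used here gives versions, the annotation or whether reads were counted by strand, so overlapping genes on opposite strands may share reads. Groups came from sample titles. Genes passed edgeR's filterByExpr, were scaled by TMM and tested with edgeR's quasi-likelihood test (edgeR 4.0.16, limma 3.58.1, R 4.3.3), with Benjamini-Hochberg adjustment over all genes tested and a threshold of 0.05. Dose was tested with sex as a term, then in 4 sex and dose means, and neighbouring doses in 10 such means. Levels are TMM-scaled CPM over the 60 libraries of the table. The code was tested on simulated data.

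Alternatives were DESeq2 1.42.0, its size factors, no filter, no sex term, all 60 libraries, the place of a library within its block of 8 title numbers, and each library left out. Named genes averaged at least 1 CPM and were the 12 highest and 12 lowest fold changes, the 6 smallest p-values each way, up to 4 called members of each list, the 4 smallest p-values of the sex difference and all calls of comparisons with at most 5; list members that did not pass are given as values. Members and lists were chosen with earlier results of these data known. Clock, Per3, Bhlhe40 and Klre1, the remaining called members of the core clock and cytotoxic lymphocyte lists, are named as well. Cd3e, Slc7a11 and the genes of replicate 64 were chosen after their values were seen. Gene positions are those of the GENCODE annotation of GRCm38 and promoter windows those of RefSeq. No library pair held near-identical counts. The values of 1 core clock gene are not reported here.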

Additional observations from a re-analysis of the deposited data

Results flagged for a closer look

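In groups of 6 libraries, 33 of 248 sets of values, for 60 genes, the total count and the share of Rn45s, had 1 library set far from the other 5. Chance alone would flag about 5% of sets of normally distributed values. These sets share the same libraries and hold genes chosen from these data, so 33 of 248 cannot be tested against that share. Of the 33, 15 came from replicate 64, a female at 200 mg/kg-d.

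In that library Arntl had 36.9 CPM where the nearest of the other 5 females had 12, Nfil3 had 35.9 against 10.6 CPM, Clock 137.1 against 106.2 CPM, Per1 422.8 against 172.8 CPM, Tef 555.8 against 396.0 CPM, and Bhlhe41 was low at 16.6 against 27.7 CPM. Among enzymes, Gpx2 had 42.8 against 28.1 CPM, Gclc 467.8 against 206.6 CPM and Nqo1 22.2 against 10.5 CPM. Angptl7 had 144.5 against 28.7 CPM, Ttyh1 11.3 against 3.93 CPM, Calca 9.74 against 4.20 CPM, Gprc5a 1153 against 799.8 CPM and Gabbr1 106.5 against 79.4 CPM, while Fggy was low at 6.57 against 7.96 CPM.

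Among the other females at 200 mg/kg-d, replicate 57 had the low total of 7253910 counts, where the next had 15170275, and replicate 61 had 2397 CPM of Aldh1a1, with 2044 CPM next. Among males at 200 mg/kg-d, replicate 51 had 4.32% of its counts in the ribosomal RNA gene Rn45s (next 0.910%) and 273.0 CPM of Cyp26b1 (next 106.4 CPM). Replicate 56 had 44.3 CPM of Angptl7 (next 23.2), 2.09 CPM of Serpinb10 (next 1.1) and a low 0.697 CPM of Klrk1 (next 2.03). Replicate 54 had 26.7 CPM of Cyp1b1 (next 20.8), and replicate 52 a low 4.67 CPM of Zfp873 (next 4.94).

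Among vehicle females, replicate 13 had 14.3 CPM of Fggy (next 11.9) and 1206 CPM of Hp (next 1008), replicate 16 had 16.8 CPM of Angptl7 (next 10.8), replicate 9 had 115.4 CPM of Cyp26b1 (next 42.3) and replicate 10 had 3.14 CPM of Klre1 (next 1.79). Among vehicle males, replicate 8 had a low 56.3 CPM of Bhlhe40 (next 79.8) and 4.28 CPM of Zfp873 (next 3.60), and replicate 4 had 1134 CPM of Hp (next 972) and 1.56% Rn45s (next 0.767%).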

How the results depend on the processing

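The alternatives were followed gene by gene for 63 genes that passed and were chosen by the rule for named genes. Among them were Postn and Gpm6a, which fell, and Cd24a and Sox2, which rose, called list members not described above. Clock, Per3, Bhlhe40, Klre1, Gabbr1, Mxi1 and Col17a1 also passed but were not followed in this way. Of the 63 genes, 47 kept direction and call in every alternative that gave them an adjusted p (29, or 28 for Angptl7, to which DESeq2 gave none), 16 lost the call in at least 1 and 0 reversed. Gclc lost it in 20 alternatives, Foxj1 and Hp in 19 each, Ly6c1 in 15, Cd3g in 13 and Lck in 12. DESeq2 called 828 genes for the dose in place of 472, 1.1e2 in males (64 that rose, 45 that fell), 1049 in females, 6 for the sex difference, 5 at 300 against 200 mg/kg-d and 35 at 200 against 100 mg/kg-d. With a term for the place within the block of 8 title numbers, the counts were 750 for the dose, 21 in males, 1146 in females and 22 at 200 against 100 mg/kg-d. With all 60 libraries in the fit they were 390 without replicate 64 (906 in the smaller fit), 825 in females and 1 for the sex difference. With only the 24 libraries of the compared doses they were 0 at 300 against 200 mg/kg-d and 1 at 200 against 100 mg/kg-d. The causes of these shifts were not tested.

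With each library left out in turn, the dose count ran from 303 (without replicate 9; 308 without replicate 3) to 906 (without replicate 64). In males it ran from 0 to 170 (without replicate 64; 13 without replicate 51). In females it ran from 217 (without replicate 13) to 980 (without replicate 60), with 247, 311 and 302 without replicates 9, 10 and 61. The sex difference ran from 0 to 1, 300 against 200 mg/kg-d from 0 to 477 and 200 against 100 mg/kg-d from 0 to 30. No paired analysis was possible because the groups compared share no title number. Depth limits genes near or under 1 CPM, such as Eomes and Klre1.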
